A study of Mus musculus with 12 samples.

Results

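The 39 genes described here mark T and natural killer (NK) lymphocytes: the chains of the T cell receptor and its CD3 partners, the CD4 and CD8 coreceptors, T cell adhesion and costimulatory receptors, the first kinases and adaptors below the receptor, lymphocyte transcription factors, regulatory T cell genes, and genes of NK and cytotoxic cells. They were chosen by gene name, and all 39 were found among the 31106 genes of the joined tables. Of these, 38 passed the filter on low counts and were tested. The libraries were made from total RNA of mouse pancreatic ductal adenocarcinoma (PDAC) tumours grown under the skin, 12 in all, in 4 groups of 3. Untreated tumours were the control. The anti-IL-1R1 group received an antibody against the interleukin-1 receptor IL-1R1, the CD40 agonist group an agonistic antibody against CD40, and the combination group both. Per the labels, the antibodies were given into the peritoneum 2 times a week. The tumour line, the mouse strain, age and sex, the antibody clones, the doses and the day of collection were not stated in the labels. A tumour placed under the skin does not have the surroundings of the pancreas, and a bulk library mixes RNA of tumour cells, stroma, vessels and immune cells. Whether libraries of 1 group are separate animals is not stated, so p-values here reflect the spread among the samples sequenced, part of which may be technical.

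A T cell recognises antigen through an alpha and a beta receptor chain, whose constant parts are encoded by Trac, Trbc1 and Trbc2, held at the surface together with the CD3 chains that carry the signal inward. The kinase Lck phosphorylates those chains and the kinase Zap70 then docks on them, while CD8 marks the cells that kill and CD4 the cells that help or regulate. NK cells lack the rearranged receptor and use germline-encoded ones such as NKp46, the product of Ncr1. PDAC is known as a tumour that T cells enter poorly. CD40 sits on dendritic cells, macrophages and B cells, and its natural ligand, encoded by Cd40lg, is made by activated helper T cells, so an agonistic antibody stands in for that signal. IL-1R1 is the signalling receptor for interleukin-1, an inflammatory cytokine, and is found on stromal and immune cells.

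The libraries held 27.8 to 53.3 M reads in genes, so that a level of 1 CPM stood for 27.8 to 53.3 reads. All levels below are CPM, counts divided by the library total in M reads, listed for replicates 1, 2 and 3, and fold changes are fitted log2 values with their standard error (SE). In a bulk sample, fewer cells of a type and less RNA per cell cannot be told apart. Epithelial tumour markers were present in every group, with a summed level of 2259.8 to 5101 CPM over 8 genes, and Krt19, a keratin of ductal cells, had a mean of 934 CPM in untreated tumours. Skeletal muscle genes set 2 libraries apart: the 10 genes summed to 1956 CPM in CD40 agonist 2 and 3895 CPM in combination 1, and to between 3.63 and 58.6 CPM in the other 10 libraries. Results that rest on these libraries are therefore also given without them where they change.

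Lymphocyte transcripts were scarce. Per kilobase of gene length, the mean level in untreated tumours was 47.6 CPM for Thy1, 14.3 for Trbc1 and 12.1 for Tcf7, followed by 5.17 for Trac, 3.87 for Nkg7 and 3.68 for Trbc2. Cd3e, the signalling chain that defines T cells, stood at 0.255 CPM per kilobase on this scale. At the bottom were Ubash3a, a phosphatase that dampens receptor signalling, at 0.0542 and Cd40lg at 0.02 CPM per kilobase. The 3 leading genes thus lay far above the CD3 chains on the per-length scale.

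A common pattern ran through the group means. The combination had the highest and anti-IL-1R1 the lowest mean for 25 of the 38 tested members, an order found in 13.1% of all tested genes. The combination mean was the highest of the 4 for 32 members, against 36.2% of all genes, and the anti-IL-1R1 mean the lowest for 27, against 22.5%. The exceptions at the top were Trbc1, Skap1 and Ikzf2, with their highest mean in CD40 agonist tumours, Cd4 and Tcf7, highest in untreated tumours, and Bcl11b, highest with anti-IL-1R1. Library by library the picture was uneven. Combination 3 was the highest of all 12 libraries for 24 members, against 20.3% of all genes, while combination 2 was the lowest of its own group for 31, against 38.4% of all genes. Over all genes combination 3 was extreme in both directions, as it was also the lowest of all 12 for 19.5% of them and for 2 members. In the CD40 agonist group, replicate 3 was the lowest for 29 members, against 35.6%, and anti-IL-1R1 3 was the lowest of all 12 for 17, against 6.69% of all genes.

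**Figure D1:**
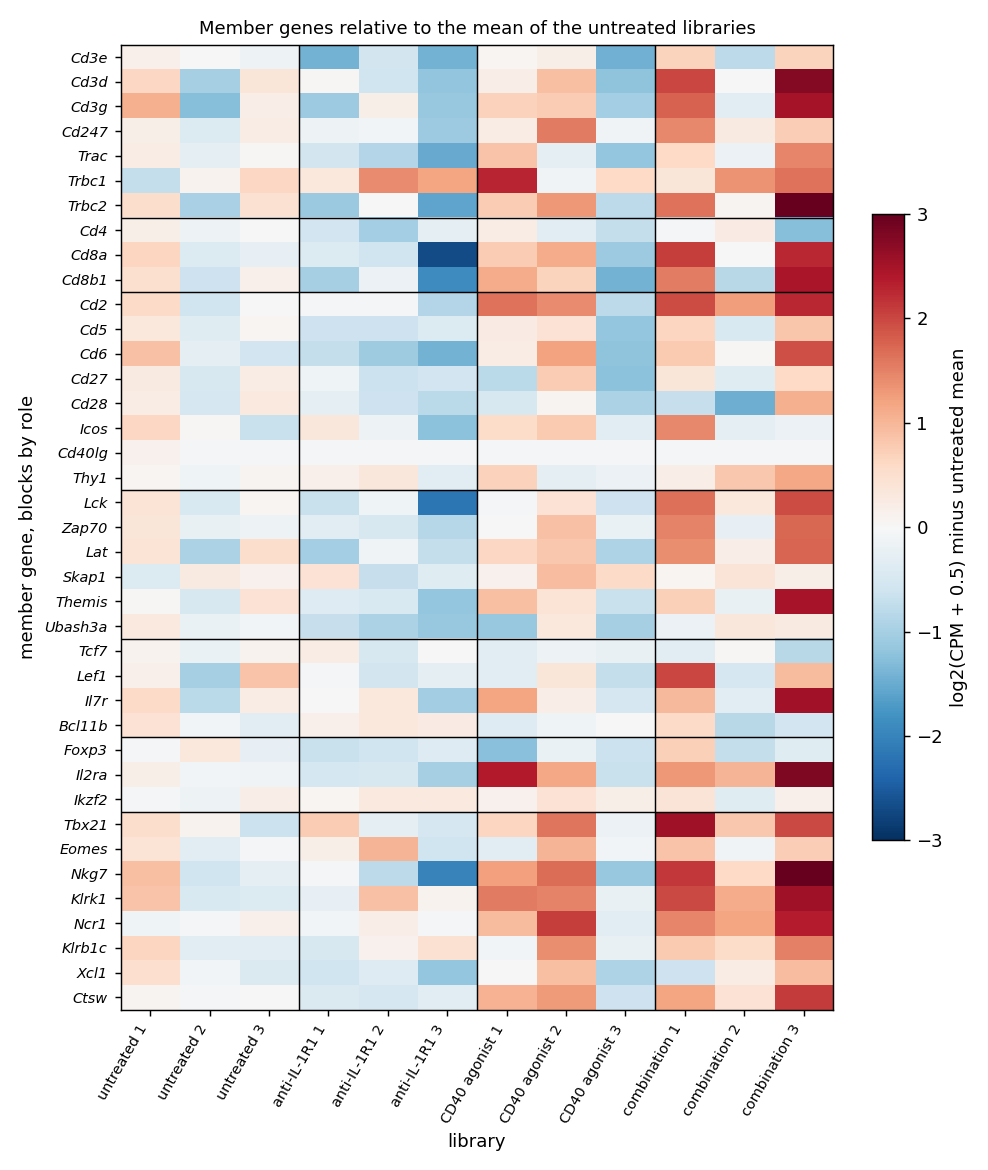
Level of the 39 member genes (rows, in blocks by role) in each of the 12 libraries (columns), as log2(CPM + 0.5) minus the mean of the 3 untreated libraries; red is above and blue below that mean, and the colour scale ends at 3 in either direction. Combination 3 is the highest library for 24 of the 38 tested members, and anti-IL-1R1 3 the lowest for 17.

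The CD3 chains showed this pattern with wide gaps between libraries of 1 group. Cd3d (ENSMUSG00000032094, chromosome 9, 44893084 to 44898637, mm39), which encodes CD3 delta, measured 2.25, 0.395 and 1.78 CPM in the untreated libraries, 1.33, 0.684 and 0.282 under anti-IL-1R1, 1.54, 2.81 and 0.274 under CD40 agonist, and 6.66, 1.30 and 11.5 in the combination. Cd3g (ENSMUSG00000002033, chromosome 9, 44880870 to 44891729), encoding CD3 gamma, measured 3.21, 0.226 and 1.52 CPM, then 0.332, 1.48 and 0.305, then 2.36, 2.49 and 0.365, and 5.50, 0.913 and 9.46 in the same order of groups. For both genes combination 1 and combination 3 were above the other 10 libraries, and combination 2 lay among the untreated and CD40 agonist values, so the groups overlapped. Cd3e (ENSMUSG00000032093, chromosome 9, 44910038 to 44920925), encoding CD3 epsilon, was low throughout, at 1.20, 1.04 and 0.879 CPM in the untreated libraries, 0.0766, 0.540 and 0.0704 under anti-IL-1R1, 1.11, 1.24 and 0.0684 under CD40 agonist, and 1.96, 0.391 and 1.96 in the combination. The 3 lowest values stand for 3 reads each, and all 12 libraries together held 435 reads of Cd3e. All 3 anti-IL-1R1 libraries lay below all 3 untreated ones for this gene. Cd247, whose product is the zeta chain that recruits Zap70, measured 0.712, 0.311 and 0.746 CPM, then 0.459, 0.504 and 0, then 0.751, 2.65 and 0.501, and 2.41, 0.783 and 1.28 in the combination. Its combination libraries were all above its untreated ones.

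The 3 CD3 genes neighbour each other on chromosome 9. In mm39 the annotated starts of Cd3d and Cd3g are 1355 bases apart and lie on opposite strands, and Cd3e begins 27841 bases from the start of Cd3d. Their promoter windows are shown because the genes are neighbours and all 3 had their highest levels in combination 1 and combination 3: 250 bases before the RefSeq start and 50 from it, read 5′ to 3′ on the gene's strand, from the GRCm38.p6 build, which differs from the mm39 build of the counts. The windows are chr9:44981536-44981835 (plus strand) for Cd3d, chr9:44980382-44980681 (minus strand) for Cd3g and chr9:45009562-45009861 (minus strand) for Cd3e. Capitals mark matches of 6 letters on either strand. The letters searched were AGGAAG for the core of ETS family sites, TGTGGT for the core of RUNX family sites, CTTTGA for the core of TCF and LEF sites, CTTTGT as another form of that core, and AGATAA for sites of the GATA family. No match in a printed window overlaps another.
Cd3d: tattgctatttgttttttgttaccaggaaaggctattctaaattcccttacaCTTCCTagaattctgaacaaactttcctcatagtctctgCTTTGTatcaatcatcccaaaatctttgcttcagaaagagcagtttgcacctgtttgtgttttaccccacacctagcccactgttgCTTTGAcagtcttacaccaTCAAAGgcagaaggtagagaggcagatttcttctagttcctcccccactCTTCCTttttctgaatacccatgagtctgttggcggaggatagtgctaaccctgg
Cd3g: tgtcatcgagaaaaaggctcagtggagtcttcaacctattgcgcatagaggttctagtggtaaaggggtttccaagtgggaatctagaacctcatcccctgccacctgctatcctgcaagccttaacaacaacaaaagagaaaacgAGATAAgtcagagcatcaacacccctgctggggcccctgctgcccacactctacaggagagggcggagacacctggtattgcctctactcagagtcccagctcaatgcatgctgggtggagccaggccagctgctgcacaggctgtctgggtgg
Cd3e: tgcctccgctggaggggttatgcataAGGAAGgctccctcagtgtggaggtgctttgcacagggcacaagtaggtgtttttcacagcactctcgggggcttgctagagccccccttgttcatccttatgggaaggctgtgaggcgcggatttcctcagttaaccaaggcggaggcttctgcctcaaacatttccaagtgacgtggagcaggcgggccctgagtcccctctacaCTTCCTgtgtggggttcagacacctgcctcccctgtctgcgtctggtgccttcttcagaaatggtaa
The Cd3d window held 5 matches, of the ETS and TCF kinds, the Cd3e window 2, both AGGAAG or its reverse complement, and the Cd3g window 1, AGATAA. Of the 39 members, 25 had a window in the RefSeq table, 7 of them with several starts, of which the first listed was used. AGGAAG was found in 14 of the 25 (56.0%) and in 35.1% of all 27025 promoter windows of that length, and TGTGGT in 8 (32.0%) against 16.9%. CTTTGA was found in 6 (24.0%) against 16.2%, CTTTGT in 5 (20%) against 18.7% and AGATAA in 2 (8.0%) against 11.4%. The motifs were chosen with the members known, and a match describes letters only.

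The constant genes of the receptor itself did not move as a block. Trac (ENSMUSG00000076928, chromosome 14, 54457978 to 54461663), the constant gene of the alpha chain, measured 5.68, 3.90 and 4.93 CPM in the untreated libraries, 3.11, 2.38 and 1.34 under anti-IL-1R1, 9.10, 3.81 and 1.85 under CD40 agonist, and 7.54, 4.20 and 14.0 in the combination. Its anti-IL-1R1 libraries were all below the untreated and the combination ones. Trbc2, 1 of the 2 beta chain constant genes, measured 3.47, 0.903 and 3.28 CPM, then 0.766, 2.23 and 0.423, then 4.15, 6.25 and 1.09, and 8.01, 2.43 and 22.0 in the combination, an order of libraries close to that of Cd3d. Its neighbour Trbc1 stood higher and in another order, at 5.85, 10.8 and 15.6 CPM in the untreated libraries, 12.6, 27.6 and 23.5 under anti-IL-1R1, 50.4, 9.20 and 15.3 under CD40 agonist, and 13.0, 26.0 and 31.9 in the combination. Trbc1 was the only member of the receptor complex with a higher fitted level in anti-IL-1R1 than in untreated tumours (log2 0.95, SE 0.62, edgeR adjusted p 1.00).

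Reads of Trbc1 for each read of Trbc2, a ratio looked at after the values were seen, were 1.69, 11.9 and 4.76 in untreated libraries and 16.4, 12.4 and 55.5 under anti-IL-1R1. CD40 agonist libraries had ratios of 12.1, 1.47 and 14.0, and combination libraries 1.63, 10.7 and 1.45. The ratio was low in untreated 1, CD40 agonist 2, combination 1 and combination 3. It was highest in anti-IL-1R1 3, where Trbc2 had 18 reads. The starts of these near-identical genes are 8512 bases apart, and how reads that match both were counted is not stated, so their separate levels are uncertain.

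**Figure D2:**
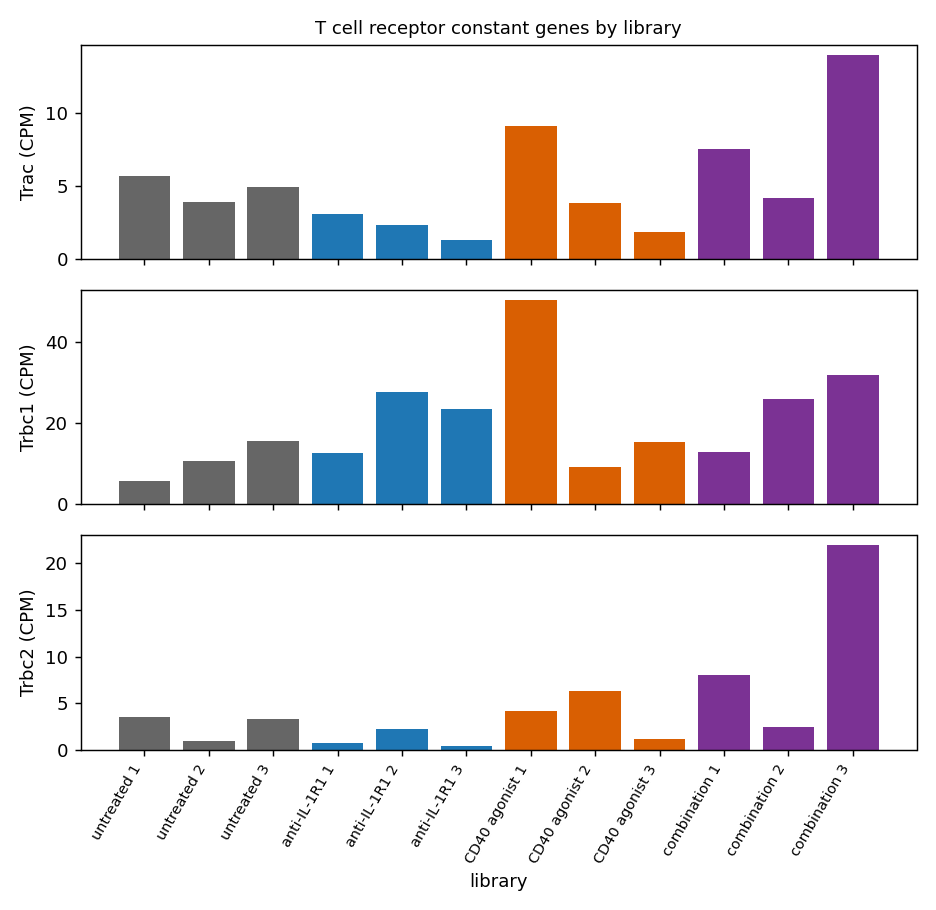
Level in CPM (vertical axes, from 0) of the T cell receptor constant genes Trac, Trbc1 and Trbc2 in each of the 12 libraries, 1 bar a library, coloured by group. Trac and Trbc2 are highest in combination 3, at 14.0 and 22.0 CPM, and Trbc1 in CD40 agonist 1, at 50.4 CPM.

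Among the coreceptors, CD8 and CD4 differed in pattern. Cd8a, the alpha chain of CD8, measured 6.39, 2.79 and 3.22 CPM in the untreated libraries, 2.81, 2.38 and 0.188 under anti-IL-1R1, 6.93, 8.98 and 1.55 under CD40 agonist, and 17.9, 3.84 and 20.6 in the combination. The 12 values spanned 109.5-fold, the widest span among members with at least 4 reads in every library, and combination 1 and 3 were above all others. Cd8b1, the beta chain, measured 2.23, 0.762 and 1.65 CPM, then 0.485, 1.22 and 0.0235, then 3.73, 2.60 and 0.228, and 5.13, 0.600 and 10.1 in the combination, where combination 2 was below all 3 untreated libraries. Cd4 was low and spanned 5.93-fold, at 1.72, 1.27 and 1.44 CPM in untreated tumours, 0.817, 0.468 and 1.13 under anti-IL-1R1, 1.82, 1.06 and 0.707 under CD40 agonist, and 1.40, 1.83 and 0.308 in the combination. The library with the most Cd8a, combination 3, had the least Cd4 of all 12, at 14 reads. Cd4 is also made by some macrophages and dendritic cells. No coreceptor passed the test of the main edgeR fit in any comparison.

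Cd8a to Cd4 count ratios were 3.71, 2.20 and 2.24 in untreated libraries, 3.44, 5.08 and 0.167 under anti-IL-1R1, 3.82, 8.51 and 2.19 under CD40 agonist, and 12.8, 2.10 and 66.8 in the combination. With CD40 agonist, in either group that received it, the mean log2 ratio was 1.86 higher than without (two-sided exact permutation test over 400 relabellings, p = 0.125, 0.333 after adjustment over the 10 ratio tests). The smallest p these relabellings can give is 0.005. Of the 10 tests, over 5 ratios and both antibodies, none passed after adjustment. The lowest p, 0.035 (exact permutation, adjusted 0.333), was for Ncr1 against Cd3e, whose mean log2 ratio was 1.66 higher with anti-IL-1R1 than without and 1.30 higher with CD40 agonist than without (p = 0.07, adjusted 0.333). Per library, Ncr1 had 0.109, 0.162 and 0.303 reads for each Cd3e read in untreated tumours and between 0.533 and 2.73 in the other 9 libraries. All 9 treated libraries thus lay above all 3 untreated ones in this ratio, on counts as low as 2 and 3 reads. Cd3e had 3 reads in each of anti-IL-1R1 1, anti-IL-1R1 3 and CD40 agonist 3. Between untreated and anti-IL-1R1 tumours mean Ncr1 was similar, at 0.189 and 0.202 CPM, and mean Cd3e fell from 1.04 to 0.229 CPM. Ncr1 against other T cell genes was not tested. Foxp3 against Cd3e was 1.79 lower with CD40 agonist (log2, exact permutation p = 0.2, adjusted 0.333), and 0.61 lower without CD40 agonist 1, which had no Foxp3 read and whose ratio the added 0.5 set.

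The adhesion and costimulatory receptors were low in every group. Cd6, a receptor that tunes T cell adhesion, measured 2.40, 0.790 and 0.559 CPM in the untreated libraries, 0.459, 0.252 and 0.0939 under anti-IL-1R1, 1.36, 3.14 and 0.182 under CD40 agonist, and 2.25, 1.12 and 5.54 in the combination. All anti-IL-1R1 libraries lay below the untreated and combination ones. Cd2, which binds CD48 on other cells, measured 1.72, 0.480 and 1.01 CPM, then 0.919, 0.936 and 0.305, then 4.07, 3.49 and 0.365, and 5.26, 3.05 and 6.69 in the combination. For Cd2 the combination libraries were above all untreated and all anti-IL-1R1 ones, and CD40 agonist 3 lay with the libraries that had no CD40 agonist. Cd5, Cd27, Cd28 and Icos, an inhibitory receptor and 3 costimulatory ones, had means between 0.403 and 1.54 CPM in every group, and their groups overlapped except that Cd5 was lower in all anti-IL-1R1 than in all untreated libraries. Cd40lg, the ligand that the CD40 antibody stands in for, had 4 reads in untreated 1 (0.0750 CPM) and 0 in the other 11 libraries. With a floor of 3 reads, 0 reads allow up to 0.0626 to 0.108 CPM in those libraries by counting error alone. It did not pass the filter and was not tested.

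Thy1, a surface protein of T cells and also of fibroblasts, was the most abundant member, at 148, 129 and 151 CPM in the untreated libraries, 158, 179 and 112 under anti-IL-1R1, 231, 116 and 126 under CD40 agonist, and 162, 248 and 321 in the combination. All combination libraries were above all untreated ones, by a fitted log2 of 0.74 (SE 0.29, adjusted p 0.239). The highest library exceeded the lowest 2.86-fold, far less than for the CD3 chains, where that ratio was 42.0 for Cd3d and 41.9 for Cd3g.

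Below the receptor, the kinases ranked like the CD3 chains. Lck, which starts the signal, measured 4.56, 2.26 and 3.43 CPM in the untreated libraries, 1.89, 2.99 and 0.352 under anti-IL-1R1, 3.19, 4.65 and 1.96 under CD40 agonist, and 11.5, 4.25 and 14.1 in the combination. Combination 1 and 3 stood above every other library, and the lowest combination value was above all anti-IL-1R1 values. Zap70 measured 2.42, 1.44 and 1.54 CPM, then 1.30, 1.12 and 0.751, then 1.75, 3.65 and 1.48, and 5.84, 1.41 and 7.02 in the combination. Its anti-IL-1R1 libraries were below all untreated and all combination ones. The adaptor Lat ranged from 0.510 to 6.36 CPM and the thymic signalling gene Themis from 0 to 5.74, both with the highest mean in the combination. Skap1, an adaptor that links the receptor to integrins, ranged only from 0.468 to 2.46 CPM and was highest in CD40 agonist 2, and Ubash3a never exceeded 0.887 CPM.

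The transcription factors split into a flat and a variable set. Tcf7, which encodes TCF-1 of naive and memory T cells, measured 39.0, 31.6 and 39.0 CPM in the untreated libraries, 42.4, 25.8 and 36.5 under anti-IL-1R1, 29.2, 32.4 and 31.2 under CD40 agonist, and 28.4, 37.4 and 20.2 in the combination. Combination 3, where most members were highest, had the lowest Tcf7. Bcl11b, needed for T cell commitment, ranged from 5.56 to 15.7 CPM and Ikzf2, which encodes Helios, from 9.92 to 17.7. The highest library exceeded the lowest 2.10-fold for Tcf7, 2.82-fold for Bcl11b and 1.78-fold for Ikzf2, so these 3 and Thy1 had the narrowest spans of the members measured in every library. In untreated tumours Tcf7 averaged 36.5, Ikzf2 13.1 and Bcl11b 10.6 CPM, against 1.04 for Cd3e and 3.42 for Lck. Which cells these transcripts came from was not tested. Lef1, a relative of Tcf7, was variable and low, at 0.619, 0 and 1.30 CPM in the untreated libraries, 0.459, 0.180 and 0.329 under anti-IL-1R1, 0.292, 0.785 and 0.114 under CD40 agonist, and 3.49, 0.209 and 1.45 in the combination. Il7r, the survival receptor of resting T cells, ranged from 1.06 CPM in anti-IL-1R1 3 to 17.9 CPM in combination 3. None of these 5 genes passed the test of the main edgeR fit in any comparison.

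Il2ra was the only member that passed the test in edgeR, and DESeq2 called others. It encodes CD25, the alpha chain of the interleukin-2 receptor, which regulatory T cells carry at rest and other T cells and some myeloid cells take up on activation. Il2ra (ENSMUSG00000026770, chromosome 2, 11647618 to 11698004) measured 2.40, 1.92 and 1.86 CPM in untreated tumours (2.06 ± 0.295, SD, n = 3), 1.28, 1.33 and 0.775 with anti-IL-1R1 (1.13 ± 0.307), 12.7, 5.19 and 1.12 under CD40 agonist (6.34 ± 5.88), and 5.74, 4.70 and 17.3 in the combination (9.24 ± 6.99). Of the 6 libraries with CD40 agonist, 5 lay above all 6 without it, and CD40 agonist 3 lay among those without. Il2ra rose with CD40 agonist, averaged over tumours with and without anti-IL-1R1, by a log2 of 2.30 (SE 0.50, edgeR quasi-likelihood test, adjusted p 0.0378). The call was lost when any of 9 of the 12 libraries was left out, with adjusted p up to 0.128 and the exceptions CD40 agonist 3, combination 1 and combination 2, and adjusted p was 0.0732 without the 2 muscle-rich libraries. It was also lost with the replicate number as a block (adjusted p 0.0886) and with no filter on low counts (adjusted p 0.0656), where Ctsw and Ncr1 were called. DESeq2 gave an adjusted p of 4.39e-05 and limma voom 0.207.

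Foxp3, the defining factor of regulatory T cells, did not follow Il2ra. It measured 0.656, 0.988 and 0.506 CPM in the untreated libraries, 0.255, 0.288 and 0.423 under anti-IL-1R1, 0, 0.541 and 0.274 under CD40 agonist, and 1.48, 0.235 and 0.440 in the combination. CD40 agonist 1, with 12.7 CPM of Il2ra, had no Foxp3 read. All anti-IL-1R1 libraries were below all untreated ones, and the combination spanned both. The promoter window of Il2ra is shown as that of the only member called by edgeR, chr2:11642542-11642841 (GRCm38.p6, plus strand), with motif matches in capitals as before.
Il2ra: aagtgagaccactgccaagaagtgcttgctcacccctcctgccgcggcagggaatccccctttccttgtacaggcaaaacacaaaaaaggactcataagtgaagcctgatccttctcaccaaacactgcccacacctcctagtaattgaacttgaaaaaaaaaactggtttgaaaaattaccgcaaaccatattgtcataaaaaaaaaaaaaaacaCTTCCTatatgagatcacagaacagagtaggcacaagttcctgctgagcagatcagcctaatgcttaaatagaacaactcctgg
It held 1 match, to AGGAAG on the opposite strand.

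All 8 NK and cytotoxic genes had higher means in both groups with CD40 agonist than in untreated tumours. Ncr1 (ENSMUSG00000062524, chromosome 7, 4340723 to 4348163), the most NK-restricted member, measured 0.131, 0.169 and 0.266 CPM in the untreated libraries, 0.153, 0.288 and 0.164 under anti-IL-1R1, 0.835, 2.38 and 0.0456 under CD40 agonist, and 1.40, 1.07 and 2.99 in the combination. Again 5 of the 6 libraries with CD40 agonist lay above all 6 without it, and CD40 agonist 3, with 2 reads, was the lowest of all. With against without CD40 agonist the log2 fold change was 2.81 (SE 0.70), which missed the threshold in edgeR (adjusted p 0.0536). The window of Ncr1 is shown as that of the member with the largest fitted value in this comparison, chr7:4337465-4337764 (GRCm38.p6, plus strand).
Ncr1: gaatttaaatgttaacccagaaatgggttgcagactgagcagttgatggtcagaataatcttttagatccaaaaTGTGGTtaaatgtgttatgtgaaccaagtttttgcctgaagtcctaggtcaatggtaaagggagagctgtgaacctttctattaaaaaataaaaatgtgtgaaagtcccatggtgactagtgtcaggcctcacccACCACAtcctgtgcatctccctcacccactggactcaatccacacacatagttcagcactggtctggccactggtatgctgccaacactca
It held 2 matches, to TGTGGT and its reverse complement.

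Ctsw, which encodes cathepsin W of cytotoxic lymphocytes, measured 2.91, 2.60 and 2.72 CPM in the untreated libraries, 1.89, 1.80 and 2.11 under anti-IL-1R1, 6.18, 7.36 and 1.62 under CD40 agonist, and 6.82, 3.86 and 13.4 in the combination. Its untreated and anti-IL-1R1 libraries were tight and did not overlap, and its log2 fold change with CD40 agonist was 1.44 (SE 0.36, adjusted p 0.0536). Nkg7, a granule protein of NK and CD8 T cells, measured 6.28, 1.89 and 2.45 CPM, then 2.99, 1.62 and 0.399, then 8.01, 11.1 and 1.14, and 15.2, 4.96 and 35.8 in the combination, a span of 89.8-fold with CD40 agonist 3 and anti-IL-1R1 3 at the bottom. Klrk1, which encodes the activating receptor NKG2D and belongs to a family of similar genes, measured 2.08, 0.536 and 0.559 CPM, then 0.689, 2.09 and 1.03, then 3.69, 3.49 and 0.707, and 5.08, 2.56 and 7.81 in the combination, where every library was above all untreated and all anti-IL-1R1 ones. Tbx21, the T-bet gene of type 1 lymphocytes, reached 4.02 CPM in combination 1 and was at or below 0.817 CPM in the 6 libraries without CD40 agonist. Eomes, its relative, ranged from 0.728 to 3.28 CPM with groups that overlapped throughout. Klrb1c, the NK1.1 gene of the same receptor family as Klrk1, ranged from 0.128 to 2.02 CPM, and the chemokine gene Xcl1 from 0.0470 to 1.80.

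**Figure D3:**
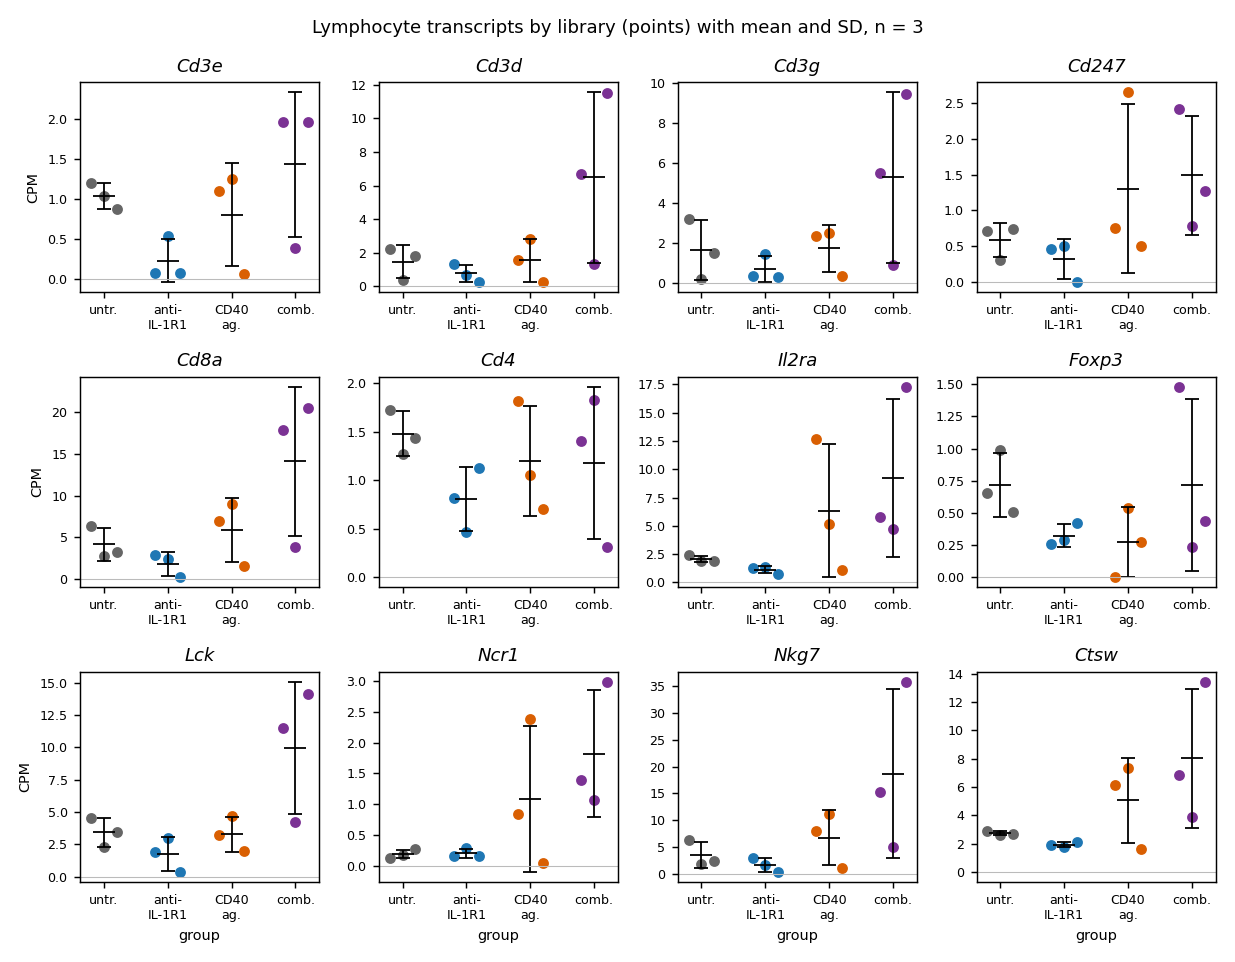
Level in CPM (vertical axes) of 12 member genes in the 4 groups (horizontal axes), 1 point a library, with the mean and SD of the 3 libraries as bars. Il2ra and Ncr1 are above all libraries without CD40 agonist in 5 of the 6 libraries with it, and Cd4 and Foxp3 are not.

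Blocking IL-1R1 alone was compared with no treatment. The fitted level was lower in anti-IL-1R1 tumours for 30 of 38 members and higher for 8 (49.9% of all genes were higher), with a median log2 fold change of -0.90. Over all 19454 tested genes the median lay between -0.03 and 0.01 in each of the 8 comparisons. None passed in edgeR, DESeq2 or limma voom, as was the case for all genes in edgeR (0%). An unadjusted p under 0.05 was reached by 2 members, against 1.57% of genes: Cd6 (log2 -2.22, SE 0.96) and Cd3e (log2 -2.26, SE 1.02), followed by Trac (log2 -1.10, SE 0.55), each with an adjusted p of 1.00. In 10 members all anti-IL-1R1 libraries were below all untreated ones, namely Cd4, Cd5, Cd6, Ctsw, Zap70, Il2ra, Cd3e, Foxp3, Ubash3a and Trac, against 4.65% of genes. The median was -0.58 without untreated 1.

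For CD40 agonist against no treatment the members gave no common direction beyond the spread. The fitted level was higher for 27 and lower for 11, against 51.7% of genes higher, with a median log2 of 0.30, which became -0.08 without CD40 agonist 2, 0.11 without CD40 agonist 1 and 0.07 without untreated 2. It was 0.63 without untreated 1 and 0.67 without CD40 agonist 3, and -0.07 without both muscle-rich libraries. None of the members passed in edgeR, DESeq2 or limma voom, against 0% of genes in edgeR and 0.0329% in DESeq2. Ncr1 (log2 2.47, SE 0.98) and Il2ra (log2 1.59, SE 0.69) had an unadjusted p under 0.05, against 2.48% of genes, and Trbc1 came next (log2 1.19, SE 0.62), each with an adjusted p of 1.00. Single libraries moved these values: Ncr1 was at 1.18 without CD40 agonist 2, and without CD40 agonist 1 Il2ra was at 0.59 and Trbc1 at 0.19. In no member did the libraries of both groups separate, against 5.49% of genes in the higher direction.

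The combination was compared with CD40 agonist alone, that is, with anti-IL-1R1 as the added antibody. The fitted level was higher in the combination for 32 members and lower for 6, against 50.3% of genes higher, with a median log2 of 0.79 that was 0.34 without combination 3, 0.38 without CD40 agonist 3 and 1.22 without CD40 agonist 2, and was 1.26 without both muscle-rich libraries. None passed in edgeR (0.00514% of genes did), DESeq2 (0.525%) or limma voom. Lck (log2 1.58, SE 0.63, adjusted p 0.712) and Cd3d (log2 2.04, SE 0.93, adjusted p 0.745) had an unadjusted p under 0.05, against 6.64% of genes, and Thy1 came next (log2 0.61, SE 0.29, adjusted p 0.755). No member had all combination libraries above all CD40 agonist ones, against 3.67% of genes. The interaction, which asks whether anti-IL-1R1 acted differently in the presence of CD40 agonist, had a positive fitted value for 32 of 38 members, against 47.3% of genes, and a median log2 of 1.55. None passed with any of the 3 tools (0% of genes in edgeR, 0.074% in DESeq2), and 6 had an unadjusted p under 0.05, against 4.36% of genes: Lck (log2 2.59, SE 0.88), Trac (log2 1.88, SE 0.77), Cd6 (log2 3.14, SE 1.31), Zap70, Cd3d and Cd3e. The lowest adjusted p was 1.00.

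The combination against untreated tumours gave a higher fitted level for 33 of 38 members, against 50.2% of genes, and a median log2 of 1.27, which was 0.81 without combination 3. No member passed in edgeR, where 0.0617% of genes did, or in limma voom, and 12 had an unadjusted p under 0.05, all higher, against 15.5% of genes in either direction and 8.77% higher. The first 3 were Ncr1 (log2 3.21, SE 1.00, adjusted p 0.149), Klrk1 (log2 2.22, SE 0.71, adjusted p 0.161) and Il2ra (log2 2.11, SE 0.70, adjusted p 0.175). DESeq2 called 4, Il2ra, Cd2, Klrk1 and Ncr1, against 4.91% of genes. All combination libraries were above all untreated ones for 8 members, Tbx21, Cd247, Ctsw, Il2ra, Cd2, Klrk1, Thy1 and Ncr1, against 11.7% of genes.

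The widest gap was between the combination and anti-IL-1R1 alone, the comparison that adds CD40 agonist to anti-IL-1R1. The fitted level was higher in the combination for 35 members, all but Bcl11b, Tcf7 and Ikzf2, against 48.1% of genes, with a median log2 of 2.08. No member passed in edgeR, where 2.44% of genes did, or in limma voom, and 21 had an unadjusted p under 0.05, all higher, against 14.6% of genes in either direction and 8.1% higher. The first 3 were Il2ra (log2 3.01, SE 0.73, adjusted p 0.0507), Ctsw (log2 2.03, SE 0.52, adjusted p 0.0570) and Lck (log2 2.50, SE 0.65, adjusted p 0.0637). All combination libraries were above all anti-IL-1R1 ones for 18 members, among them Lck, Zap70, Cd8a, Trac, Trbc2 and Ncr1, against 9.03% of genes. DESeq2 called 16 members, against 6.2% of genes. Without combination 2, edgeR called 5, namely Lck, Ctsw, Zap70, Il2ra and Trbc2. The share of all genes called without that library is not given here, so this count has nothing to stand against.

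With both antibodies taken as factors, CD40 agonist gave higher fitted levels for 35 of 38 members, against 48.6% of genes, with a median log2 of 1.16, and 1 passed, Il2ra, against 2.24% of all genes. An unadjusted p under 0.05 was reached by 17, all higher, against 14.3% of genes in either direction and 8.85% higher. After Il2ra came Ncr1, Ctsw and Cd2 (log2 2.02, SE 0.53, adjusted p 0.0677). DESeq2 called 8, namely Nkg7, Ctsw, Zap70, Il2ra, Cd2, Klrk1, Ncr1 and Trbc2, against 5.59% of genes. Without CD40 agonist 3, edgeR called 5 (Ctsw, Il2ra, Cd2, Klrk1 and Ncr1), and without combination 2 it called 4 (Ctsw, Zap70, Il2ra and Ncr1). The share of 2.24% is from the fit of all 12 libraries, and that of all genes in these refits is not given here. No member had all 6 libraries with CD40 agonist above all 6 without it, against 0.355% of genes. Anti-IL-1R1 as a factor gave higher levels for 21 and lower for 17 members, against 49.7% of genes higher, a median log2 of 0.04 (0.25 without both muscle-rich libraries) and no member with an adjusted or unadjusted p under 0.05 in edgeR, against 0% and 4.58% of genes, and none called by DESeq2 (0.14% of genes) or limma voom. Thy1 had the lowest p there (log2 0.33, SE 0.20, adjusted p 0.896). This factor averages anti-IL-1R1 against untreated tumours (median log2 -0.90) and the combination against CD40 agonist (0.79), which differ in sign. Over all 4 groups, 0 members differed in edgeR (0.0206% of genes did), 14 had an unadjusted p under 0.05, against 9.36%, and DESeq2 called 9, against 4.84%. Without CD40 agonist 3, edgeR called 4 there, and the share of all genes in that refit is not given here. A p that misses the threshold does not show that the groups were alike.

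**Figure D4:**
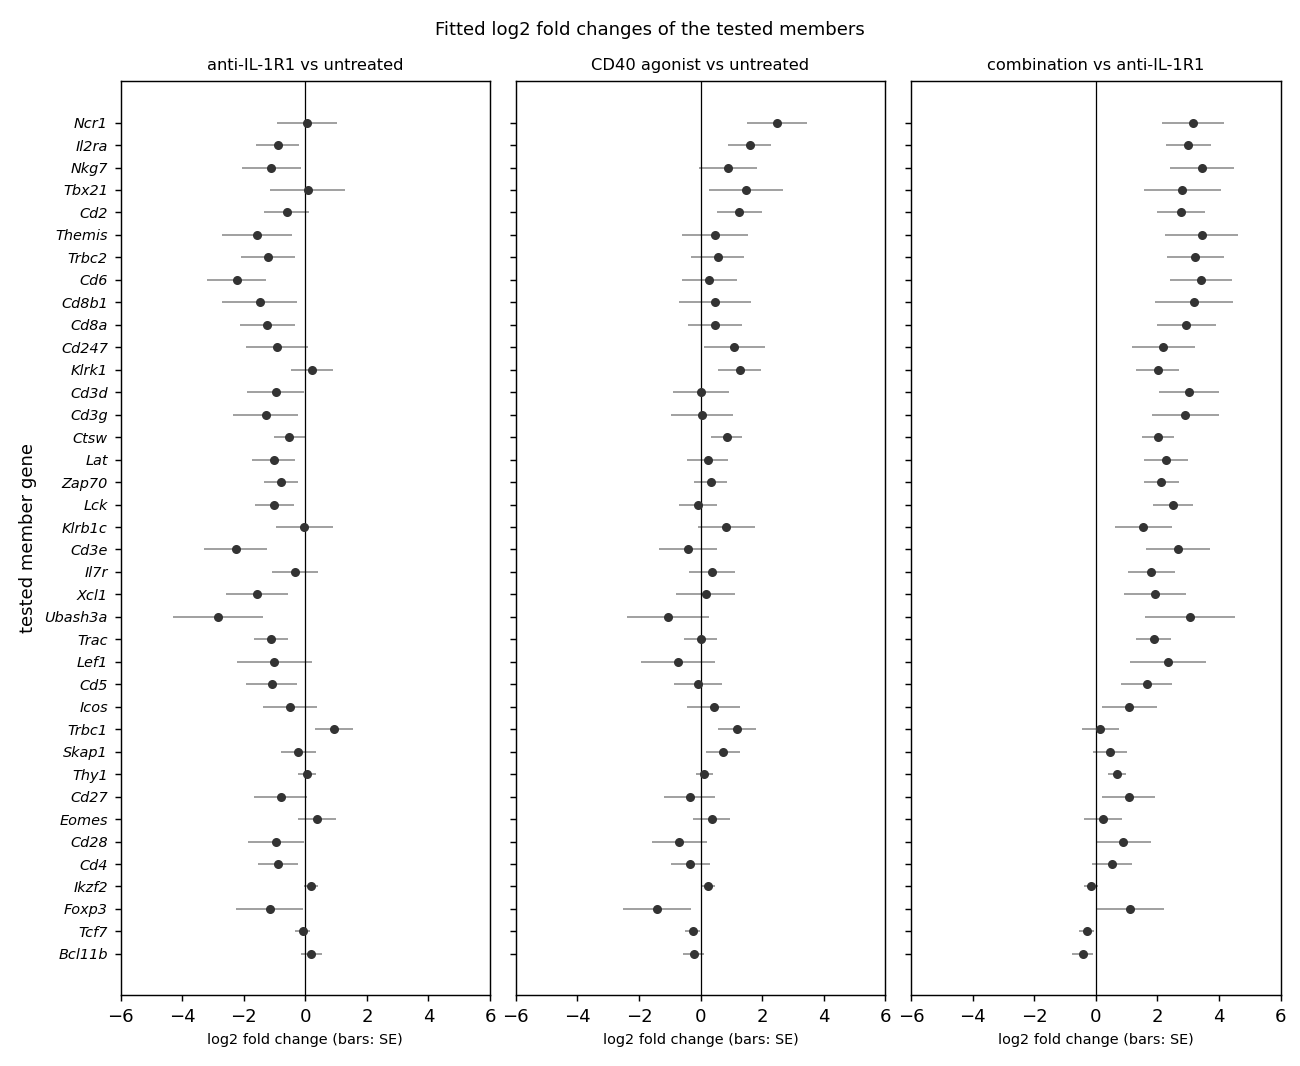
Fitted log2 fold changes (points, horizontal axes) with their SE (bars) of the 38 tested members (rows) in 3 comparisons, which share groups with each other. Most points lie left of 0 for anti-IL-1R1 against untreated tumours (30 of 38) and right of 0 for the combination against anti-IL-1R1 (35 of 38), and for CD40 agonist against untreated tumours they lie on both sides (27 right, 11 left).

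Taken by role, the 7 genes of the receptor complex had a median log2 of -1.10 for anti-IL-1R1 against untreated tumours, 0.04 for CD40 agonist against untreated tumours and 0.81 for the combination against CD40 agonist. The 8 NK and cytotoxic genes had medians of 0.01, 0.88 and 0.70 in the same comparisons, and the 6 proximal signalling genes -1.02, 0.28 and 1.15. The first and second of these comparisons share the untreated libraries and the second and the last the CD40 agonist libraries, and differences between the roles were not tested. In the deposited tables of the authors' own test, which cover 3 of these comparisons, 0 members were called, and 7, 2 and 6 members had an unadjusted p under 0.05 for anti-IL-1R1, CD40 agonist and the combination in that order. The share of all genes under that unadjusted threshold in these tables is not given here, so the 3 counts are not set against it. These tables list 39 members for anti-IL-1R1 and for CD40 agonist against untreated tumours and 38 for the combination against CD40 agonist. The lowest adjusted p of the authors' deposited tables among the members was 0.476, 0.347 and 0.315, where 0.079%, 0.0551% and 0.0789% of genes were called.

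Genes of the wider T cell programme outside the member list were read from the same fit. Of all tested genes, 2.44% were called in the combination against anti-IL-1R1 and 2.24% with CD40 agonist, in either direction, and the counts of each list stand against these shares. Of 28 tested T cell receptor signalling genes, 4 rose in the combination against anti-IL-1R1 and 4 with CD40 agonist, the same genes in both: Lcp2, Ptpn6, Slamf6 and Vav1. The median log2 of the 28 was 1.61 and 1.03 in these comparisons. Slamf6, a receptor of T and NK cells, averaged 1.57 ± 0.837, 0.809 ± 0.354, 2.07 ± 1.60 and 8.63 ± 3.97 CPM in untreated, anti-IL-1R1, CD40 agonist and combination tumours, a log2 of 3.40 between the last and anti-IL-1R1 (SE 0.64, edgeR adjusted p 0.0253). Lcp2, Ptpn6 and Vav1 are also used by myeloid cells. Of 33 tested genes of T and NK cell trafficking and differentiation, 8 rose in the combination against anti-IL-1R1, namely Il12rb1, Cd69, Il21r, Itgal, Il2rg, Batf, Ccl5 and Ifng, and all of these but Ccl5 also rose with CD40 agonist. The median log2 of the 33 was 0.78 and 0.30. Which cells made the transcripts of this list was not tested, and 3 of 8 general leukocyte genes also rose in the combination against anti-IL-1R1. Il2rg, the gamma chain that pairs with CD25 in the interleukin-2 receptor, averaged 8.48 ± 1.86, 5.41 ± 0.180, 18.2 ± 11.0 and 32.2 ± 7.93 CPM, a log2 of 1.81 with CD40 agonist (SE 0.28, adjusted p 0.0218). Ifng, the interferon gamma gene of activated T and NK cells, averaged 0.807 ± 0.136, 0.110 ± 0.170, 1.50 ± 1.08 and 10.2 ± 9.71 CPM, a log2 of 6.39 between combination and anti-IL-1R1 (SE 1.19, adjusted p 0.0254), against a group with almost no reads.

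Of 18 NK receptor genes, Fcgr3 and Tyrobp rose with CD40 agonist, Fcgr3 also in the combination against anti-IL-1R1, and both are also macrophage genes, while Klrg1 (log2 1.97, SE 0.53, adjusted p 0.0746) and the rest did not pass. Of 7 tested gamma delta and innate lymphoid genes, Il1rl1, the receptor gene of interleukin-33, rose with CD40 agonist (log2 1.30, SE 0.30, adjusted p 0.0434). Il1rl1 averaged 9.78 ± 2.80 CPM in untreated and 27.6 ± 18.4 CPM in combination tumours, and which cells made it was not tested. Il17a and Il23r had no reads in either group without CD40 agonist.

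Markers of other cells moved with these results, and their part in them was not tested. Of 8 leukocyte genes, 4 rose with CD40 agonist, against 2.24% of all genes called there: Ptprc, Itgb2, Cd52 and Coro1a. All of these but Ptprc also rose in the combination against anti-IL-1R1, where 2.44% of all genes were called. The 8 summed to 279 to 429 CPM in untreated, 245 to 309.6 in anti-IL-1R1, 289 to 657 in CD40 agonist and 492 to 776 in combination libraries. Ptprc, the gene of the leukocyte antigen CD45, measured 22.4, 16.2 and 26.5 CPM, then 16.3, 23.7 and 18.1, then 33.5, 71.5 and 21.4, and 85.7, 34.9 and 115.8 in the combination. CD40 agonist 3 and combination 2 were the lowest of their groups in Ptprc as in most members. The Cd3e to Ptprc ratio was 0.47 lower with CD40 agonist (log2, exact permutation p = 0.58, adjusted 0.656), but only 0.02 lower without CD40 agonist 3 and 0.09 lower without anti-IL-1R1 2, and 1.10 lower with anti-IL-1R1 (p = 0.185, adjusted 0.333). Its mean log2 was -4.35 in untreated, -6.90 in anti-IL-1R1, -6.27 in CD40 agonist and -5.92 in combination libraries. Each average thus pools a lower ratio against untreated tumours with a higher one in the combination against the other antibody alone. Of 12 macrophage and monocyte genes, Fcgr1 rose with CD40 agonist, and Fcgr1 and C1qa rose in the combination against anti-IL-1R1 (C1qa log2 1.05, SE 0.23, edgeR adjusted p 0.0352). The sums were 915 to 1169.7, 728 to 1022, 982 to 2536 and 1698 to 2738 CPM in the 4 groups. Of 9 tested dendritic cell genes, Itgax rose in the combination against anti-IL-1R1, with sums of 157 to 209, 86.0 to 176, 175 to 319 and 195 to 277 CPM. Xcr1 and Cd209a were at 0 in the combination, but averaged only 0.563 and 0.690 CPM in untreated tumours, and neither was called.

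B cell genes did not pass (8 genes, sums of 4.91 to 44.7, 5.33 to 15.0, 7.07 to 28.4 and 10.9 to 37.3 CPM). Fcmr was at 0 in the combination and at 1.15 ± 1.70 CPM in untreated tumours. Of 7 tested lymph node stroma genes, Ccl19 rose with CD40 agonist from 0 in both groups without it, and in the combination against anti-IL-1R1. It averaged only 0.181 ± 0.138 CPM under CD40 agonist alone and 1.49 ± 0.691 CPM in the combination. The sums of the list were 4.53 to 25.0, 8.31 to 31.6, 10.1 to 35.2 and 9.99 to 94.7 CPM. Ccl21a, which was not called, averaged 39.0 CPM of this in the combination. Of 8 epithelial genes, Epcam and Krt19 fell in the combination against anti-IL-1R1, Epcam also against untreated tumours and with CD40 agonist, and the sums were 3472 to 5101, 3549 to 4749.7, 3561 to 4884 and 2259.8 to 3031 CPM. Of 10 fibroblast genes, Pdpn and Pdgfra rose in both comparisons (with CD40 agonist, and combination against anti-IL-1R1; summed 14015 to 15638, 9716 to 17831, 9079.9 to 16388 and 6114 to 19045 CPM). None of the mast cell, skin, muscle or endothelial genes passed in these comparisons, and Retn alone rose among 7 adipose genes, in both.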

How the data were processed

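Each of the 3 tables the authors deposited holds raw read counts per gene for 6 libraries and, per the file headers, gene lengths in bases and the authors' own log2 fold changes, p-values and adjusted p-values. The submitters' processing notes name mm39 and DESeq2; aligner, counting tool and strand use were not stated. The 42 columns of normalized values were not used. Tables were joined by gene identifier as a union of 31106 genes, absent genes at 0 (25619 were in all 3). Shared libraries had 0 mismatching counts, and no 2 libraries of a group agreed within sampling noise (median chi-square per gene of at least 5.78, against 0.455).

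All 12 libraries were fitted with edgeR 4.0.16 in R 4.3.3 (quasi-likelihood, robust, TMM, filterByExpr, 19454 genes, 8 residual degrees of freedom), with Benjamini-Hochberg adjustment over all tested genes and calls at an adjusted p under 0.05. Printed CPM use library totals without TMM. Adjusted p are from edgeR unless another tool is named. DESeq2 1.42.0 and limma 3.58.1 (voom), other scalings, no filter, a replicate block and each library left out were alternatives. Ratios used counts plus 0.5. The scripts were tested on simulated data. Same-numbered anti-IL-1R1 and untreated libraries deviated together (correlations 0.233, 0.193 and 0.222 over 14384 genes), but no label gives a pairing. The main fit used no pairing, and the replicate number was a block only in an alternative fit. The block changed no member's call in anti-IL-1R1 against untreated tumours.

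Members, lists, motifs and tests were chosen with earlier results of these data known. Values in all libraries are given for members called, for the 3 with the lowest p per comparison and for a set list of receptor, coreceptor, transcription factor and NK genes; Cd2 and Zap70 were added after their values were seen. Of other lists, genes that passed the test are named; 1 gene of the trafficking and differentiation list is not reported here and was left out of its counts and medians. Floors cover counting error only.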

Additional observations from a re-analysis of the deposited data

How the results depend on the processing

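The number of members called depended on the tool and on single libraries, and the cause was not tested. The share of all genes called is given above for the main edgeR fit and for DESeq2. It is not given for the other settings, so their counts do not show whether members gained more than all genes did. For tumours with against without CD40 agonist, 1 member was called, and 2 with no filter on low counts (Ctsw and Ncr1), 8 with DESeq2, 0 with limma voom, 0 without the 2 muscle-rich libraries and 0 to 5 when single libraries were left out. For the combination against anti-IL-1R1, where 0 were called, 1 was called with no filter (Ctsw), 2 in a fit of these groups only (Il2ra and Cd2), 16 with DESeq2 and 0 to 5 with single libraries left out. DESeq2 called 4 for the combination against untreated tumours and 9 among the 4 groups, where leaving out libraries gave 0 to 4. In the other comparisons 0 members were called under every alternative run. The median interaction was 2.11 without the muscle-rich libraries and 1.14 to 2.16 with single libraries left out. With the replicate number as a block, 0 members were called in every comparison, Il2ra included (adjusted p 0.0886 in edgeR). Only anti-IL-1R1 and untreated libraries of the same number deviated together throughout, and there the block, also in a fit of those groups alone, gave 0 members. With single libraries left out, the median for CD40 agonist against untreated tumours ran from -0.08 to 0.67 and that for anti-IL-1R1 as a factor from -0.18 to 0.22, so neither direction held. The anti-IL-1R1 factor averages comparisons with medians of opposite sign. These ran from -1.06 to -0.58 for anti-IL-1R1 against untreated tumours and from 0.34 to 1.22 for the combination against CD40 agonist. The Cd8a to Cd4 ratio with anti-IL-1R1 turned to -0.11 without anti-IL-1R1 2 and -0.27 without combination 3 (log2, range -0.27 to 1.09), and Cd8a to Cd3e to -0.0904 without anti-IL-1R1 1 (range -0.09 to 0.83). Of values not called, Cd3e in anti-IL-1R1 against untreated tumours ran from -3.78 to -1.82 with single libraries left out, Il2ra in the combination against untreated tumours from 1.29 to 2.41, and Cd3d and Thy1 in the combination against CD40 agonist from 1.34 to 2.78 and 0.38 to 0.97. Depth limits members with a library at 3 reads or fewer: Cd3e, Cd247, Cd8b1, Cd40lg, Themis, Ubash3a, Lef1, Foxp3, Tbx21, Ncr1 and Xcl1.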
